A study of Mus musculus with 4 samples.

Results

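Repeat-derived distal elements were studied in a STARR-seq experiment on mouse Th17 cells. Elements were taken when their centre lay more than 1 kb from every annotated start (TSS) of protein-coding transcripts and at least 50% of their bases were soft-masked, that is, marked as repeat sequence by lower-case letters in the mm10 genome. The rule gave 1047 elements out of 14709 distal elements and 24217 listed elements on chromosomes. The remaining 13662 distal elements, under 50% masked, are called other distal elements. No measured value entered the rule. Soft-masked bases made up 36.4% of the genome and 14.4% of the bases of distal elements, so masked sequence was less common among listed elements than in the genome. Short tandem repeats, which are masked too, took at least 30% of the sequence in 30 members, of which all were higher.

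The study had 1 group of 4 biological replicates. Primary T cells of mouse strain C57BL/6NJ had been activated towards Th17, the interleukin-17-producing T helper lineage, for 3 days with anti-CD3e at 0.25 µg/mL, anti-CD28 at 1 µg/mL, anti-Interleukin-4 at 2 µg/mL, anti-Interferon-gamma and Interleukin-6, and had been transiently transfected with the plasmid library, which stays an episome. In STARR-seq a genomic fragment lies in the transcribed part of a plasmid, so RNA that holds the fragment, relative to the plasmid put in, reports how far the fragment raised transcription. An episome lacks the chromatin and the neighbours of the genomic locus. The authors' deposited table gives 1 log2 fold change, p-value and q-value per element for the 4 replicates together. Values per replicate, the depth of each sample and any control library were not used here, so no spread between replicates can be given and no test between sets of elements was made. Which way the ratio runs is left unsaid in the files. It was read as RNA of the reporter over input, so that "higher" elements have a log2 fold change above 0 and "lower" elements one below 0. Every listed element had a q-value under 0.01, and the q-values imply 114722 tests, of which 21.1% are listed. Shares of higher elements are therefore shares of elements that differed in one direction or the other. Intervals after shares are exact (Clopper-Pearson) 95% intervals and cover counting error only. Elements are not replicates, and members of a repeat family share their sequence.

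Interspersed repeats are copies of mobile sequences that spread through the genome. Long terminal repeats (LTRs) are the promoters of endogenous retroviruses and can hold binding sites of transcription factors. Short interspersed elements such as the mouse B1 descend from small RNA genes, B1 from the 7SL RNA of the signal recognition particle, and carry an internal promoter of RNA polymerase III with an A box and a B box. Older copies have gathered mutations and are unique in the genome, whereas young copies are still nearly alike.

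The sequences that the results below turn on are windows of 6 elements. For family 1, 2, 6 and 7 (families of like sequence, described below) the window comes from the element of smallest p. It is the stretch that aligned to the family's core, with some flanking bases on each side, cut at 300 bases. For family 2 the window of the highest element of all is printed too. The last window is a whole element that belongs to no family. Capitals mark the B box (GTTCNANNC) in family 1, the p53 half-site in family 2, the NF-kB and STAT (TTCNNNGAA) words in family 6, the CRE (TGACGTCA), KLF/SP (GGGCGG) and CCAAT words in family 7, and the AP-1 (TGACTCA) and IRF words in the element near Lag3. Words were searched on both strands, and a match is a description of the letters and not a binding site. In the Scd3 window of family 2, 132 of 162 bases aligned, and the capitals lie almost wholly in the flanking bases. In the Zfp53 window they lie within the aligned stretch, so the 2 are not the same place of the core. Each line names the family, the nearest coding gene, the mm10 position and the strand printed.
Family 1, Phactr4, chr4:132409935-132410070, minus strand: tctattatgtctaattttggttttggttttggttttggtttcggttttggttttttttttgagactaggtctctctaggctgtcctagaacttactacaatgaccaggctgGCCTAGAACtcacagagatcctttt
Family 2, Scd3, chr19:44254252-44254413, minus strand: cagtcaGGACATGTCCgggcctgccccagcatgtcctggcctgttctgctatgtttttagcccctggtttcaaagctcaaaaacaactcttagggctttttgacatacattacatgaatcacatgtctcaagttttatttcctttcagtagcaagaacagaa
Family 2, Zfp53, chr17:21478260-21478424, plus strand: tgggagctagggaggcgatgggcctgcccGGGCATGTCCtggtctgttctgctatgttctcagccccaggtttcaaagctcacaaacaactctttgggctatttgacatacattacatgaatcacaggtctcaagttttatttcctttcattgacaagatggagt
Family 6, 2610301B20Rik, chr4:10439983-10440282, minus strand: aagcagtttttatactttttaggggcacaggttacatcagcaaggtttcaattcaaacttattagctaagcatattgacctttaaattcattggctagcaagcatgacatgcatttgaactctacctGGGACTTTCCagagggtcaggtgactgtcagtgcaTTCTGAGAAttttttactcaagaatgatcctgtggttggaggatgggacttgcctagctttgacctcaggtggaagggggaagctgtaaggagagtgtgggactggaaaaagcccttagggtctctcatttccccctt
Family 7, Hfe2, chr3:96489388-96489599, minus strand: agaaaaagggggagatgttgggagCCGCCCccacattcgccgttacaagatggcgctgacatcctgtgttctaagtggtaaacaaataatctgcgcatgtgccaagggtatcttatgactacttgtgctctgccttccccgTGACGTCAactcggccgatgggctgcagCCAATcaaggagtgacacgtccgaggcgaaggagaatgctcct
No family, Lag3, chr6:124907826-124908125, plus strand: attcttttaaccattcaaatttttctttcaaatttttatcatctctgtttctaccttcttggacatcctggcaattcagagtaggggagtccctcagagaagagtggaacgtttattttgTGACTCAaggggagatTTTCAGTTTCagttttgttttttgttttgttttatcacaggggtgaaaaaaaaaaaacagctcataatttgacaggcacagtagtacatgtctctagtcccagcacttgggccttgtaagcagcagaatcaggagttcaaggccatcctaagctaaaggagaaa

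Repeat-derived distal elements were mostly higher. Of the 1047, 945 were higher (90.3%, interval 88.3 to 92.0) and 102 lower, beside 49.4% higher among all 24217 elements, 72.7% among all distal elements and 71.4% (70.6 to 72.2) among other distal elements. Their median log2 fold change was 2.15 (95% interval 2.06 to 2.28), with quartiles of 1.40 and 3.22, against 1.11 (1.09 to 1.12) in other distal elements. A log2 fold change of at least 3 was reached by 309 of them (29.5%) and by 656 other distal elements (4.80%). Among the 100 highest elements in the authors' deposited table were 25 repeat-derived distal elements, which make up 4.32% of the listed elements.

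The share of higher elements increased with the masked share without a step at the threshold. It was 64% in the 3022 distal elements with no masked base, 82.4% in the 420 with over 40% to under 50%, 86.3% in the 315 with 50 to 60% and 94.8% (91.1 to 97.3) in the 232 with over 90%. The median log2 fold change went from 1.03 at no masked base to 2.62 at over 90%. On either side of the threshold, 157 of 187 elements at 45 to under 50% were higher (84.0%, median 1.55), and 129 of 151 at 50 to under 55% (85.4%, median 1.76). The 116 fully masked elements were higher in 106 cases, with a median of 2.66.

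**Figure D1:**
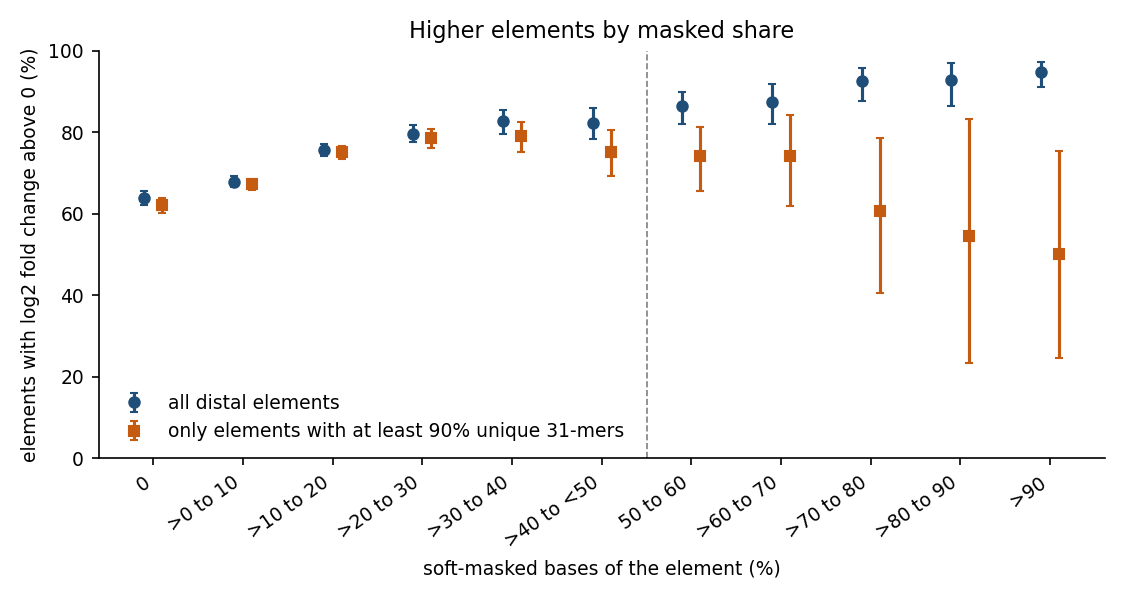
Share of distal elements with a log2 fold change above 0 (y axis, percent) by their share of soft-masked bases (x axis, percent), with exact 95% intervals. Circles are all distal elements and squares only those with at least 90% unique 31-mers. The dashed line is the threshold of 50%. Circles go from 64% to 94.8%, while squares go from 62.1% at no masked base to 79.0% at over 30 to 40% and to 8 of 16 elements at over 90%. The median lengths of the elements in these 3 squares are 300, 425 and 50 bp.

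Much of the excess over other distal elements went with sequence that is not unique in the genome. For each element the share of its 31-mers (words of 31 bases) that occur once on the chromosomes was computed. The median was 66.5% in repeat-derived distal elements and 100% in other distal elements. The 795 members under 90% unique were 96.6% higher (95.1 to 97.8), with a median of 2.46, whereas the 252 members with at least 90% were 70.2% higher (64.2 to 75.8), with a median of 1.26. Other distal elements split the same way, at 89.0% of 1079 and 69.9% of 12583. The difference in the share of higher elements between repeat-derived and other distal elements was 18.9 percentage points (95% interval 16.8 to 20.7). Among elements with at least 90% unique 31-mers it was 0.342 points (-5.63 to 5.71), and with other distal elements weighted to the same 5 bins of unique share it was 3.93 points (1.72 to 6.13). The value of 0.342 points mixes lengths. Over 100 bp, 152 of 190 such members were higher (80%, 73.6 to 85.4) and 8531 of 11870 such other distal elements (71.9%, 71.1 to 72.7). Up to 100 bp, 25 of 62 such members were higher (40.3%, 28.1 to 53.6) and 264 of 713 such other distal elements (37.03%, 33.5 to 40.7). Elements with over 10 to 50% unique 31-mers were all higher in the 278 members, with a median of 2.95, and higher in 238 of the 243 other distal elements (97.9%), with a median of 3.26 at a median masked share of 7.33%. How reads that match several copies were placed is not given in the sources used here, and its part in these values was not tested.

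GC content goes with the sign of the fold change in this table, and repeat-derived distal elements had a lower median GC content (45.8%) than other distal elements (47.8%). Weighted to the GC deciles of the members, other distal elements would be 79.7% higher, which leaves a difference of 10.6 points (8.69 to 12.5). Weighted jointly over 5 classes each of GC content and length it was 10.9 points (8.93 to 12.9). Both differences changed sign among elements with at least 90% unique 31-mers, to -7.22 points (-12.9 to -1.54) and -7.59 points (-13.3 to -1.86). Neither was computed apart for elements up to 100 bp, which were 62 of these 252 members and 713 of these 12583 other distal elements. Without weighting, these members were more often higher both over and up to 100 bp, as given above. Up to 100 bp the intervals overlapped. In the decile of lowest GC content 92.8% of members and 91.0% of other distal elements were higher. In the next to highest decile, with 53.6 to 58.0% GC, 42 of 48 members (87.5%, 74.8 to 95.3) and 47.1% (44.4 to 49.7) of 1411 other distal elements were. In the highest decile 20 of 32 members were higher (62.5%, 43.7 to 78.9), against 16.3% (14.4 to 18.3).

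**Figure D2:**
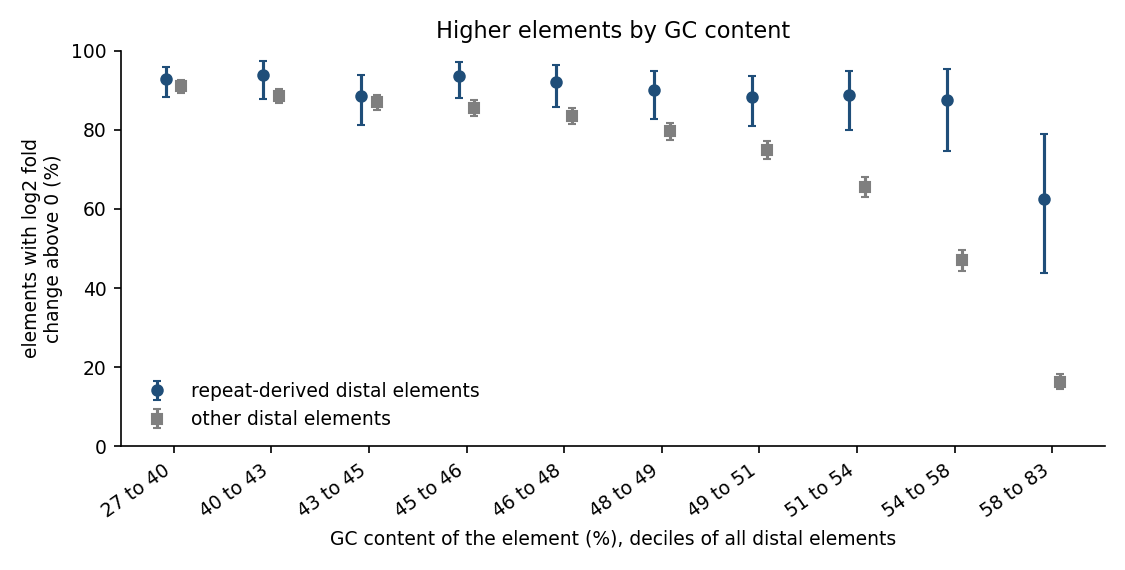
Share of elements with a log2 fold change above 0 (y axis, percent) by deciles of GC content over all distal elements (x axis, percent GC), with exact 95% intervals. Circles are repeat-derived and squares other distal elements. Squares fall from 91.0% to 16.3% and circles from 92.8% to 62.5%, and the intervals lie apart in the upper deciles of GC content.

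Members were shorter than other distal elements, with medians of 300 and 475 bp. The shortest were the least often higher in both sets: 88 of 131 members up to 100 bp (67.2%) and 41.4% of 773 other distal elements. At over 200 to 300 bp 256 of 261 members were higher (98.1%). Lower members were shorter and more unique than higher ones, with median lengths of 200 and 300 bp and median unique shares of 97.5% and 62.5%. Of the 102 lower members 43 spanned at most 100 bp, and 75 had at least 90% unique 31-mers. By position, 577 members (55.1%) were intergenic, 383 (36.6%) in an intron of a coding gene and 70 in an intron of another gene. Other distal elements were intergenic in 39.4% and in an intron of a coding gene in 46.6%. Intergenic members were higher in 93.2% and those in introns of coding genes in 86.2%, with median unique shares of 61.6% and 76.8%. Of the 53 members within 1 kb of a TSS of any annotated transcript, such as a long noncoding RNA, 45 were higher.

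The masked stretches of the members were compared with each other, and 694 members fell into 8 families of at least 20 members, numbered by size, while 353 belonged to none. Only 228 members matched no other member. A family was given the name of a repeat only through a match to a mobile element that RefSeq names on GRCm38. Higher members made up 94.4% of those in families and 82.2% of those in none.

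Family 1 matched the B1 repeat. Of its 163 members 154 matched B1_Mus2, which RefSeq annotates at chr7:103823699-103823836, with a median identity of 89.7%. Its members ran from -2.82 to 6.84, with quartiles of 1.61 and 4.02 and a median of 2.64, and 154 were higher (94.5%). It holds 21 of the 50 highest members. The B box was in 31.3% of it and 16.0% of other distal elements, and 45 of the 51 members with it were higher (median 1.97), as were 109 of the 112 without it (median 2.87). A match to the 7SL RNA gene was found in 10 members, 9 of them higher. The 30 members with at least 90% unique 31-mers had a median of 1.45 and 27 of them were higher, while the 133 others had a median of 2.91.

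Family 2 stood highest, with a median of 3.60 (95% interval 3.43 to 3.74) over 151 members, quartiles of 3.18 and 4.00, and 150 higher. The 1 lower member, at -2.08, was also its only member with at least 90% unique 31-mers. The median unique share in the family was 40%. The p53 half-site, a word of 10 letters bound by p53, the tumour suppressor and transcription factor that answers DNA damage, was in 143 of the 151 (94.7%), against 17.5% of other distal elements and 17.3% of all elements. It lay in masked bases in 138 of them, at a median of 38.0 bp from the element's centre, and 31 members held at least 2. All 143 members with the half-site were higher, with a median of 3.63. Of the 8 without it 7 were higher, with a median of 2.94 and a median length of 112.5 bp. The RORE word TAGGTCA, bound by the Th17 factor ROR gamma t and its relatives, was in 49% of the family and 5.80% of other distal elements. Family 2 members with it had a median of 3.59 and those without it one of 3.62, and 73 of 74 and 77 of 77 were higher.

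The full p53 site, a pair of half-sites side by side, was in 29 members, 20 of them in family 2 and 9 in no family. All 29 were higher (88.1 to 100%), with a median of 3.84. All 55 other distal elements with it were higher too, with a median of 3.23. It was in 2.77% of members, 0.403% of other distal elements and 0.351% of all elements.

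Family 4 had 67 members, all higher, from 1.01 to 5.35 with a median of 2.15. Its GC content was the lowest of the 8 families, at a median of 36.9%. The IRF word, of 10 letters, bound by the interferon regulatory factors that include IRF4 of activated T cells, was in 52 of them (77.6%), against 12.9% of other distal elements. In 51 it lay in masked bases. Members with it had a median of 2.33 and those without it one of 1.99.

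Family 6 had 58 members, of which 53 were higher (91.4%, 81.0 to 97.1), with a median of 2.01. The NF-kB word, of 10 letters, bound by the factors that T-cell receptor and CD28 signals switch on, was in 28 (48.3%), against 2.08% of other distal elements. The STAT word, bound by factors of cytokine receptors such as STAT3 downstream of interleukin-6, was in 31 (53.4%), against 20.6%. All 28 members with the NF-kB word were higher, with a median of 2.37, and 25 of 30 without it, with a median of 1.64. All 31 with the STAT word were higher (median 2.48), and 22 of 27 without it (median 1.49). The PU.1 word (GAGGAAGT) went the other way. Of 11 family 6 members with it 6 were higher (median 0.796), and all 47 without it (median 2.12).

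Family 7 had 57 members, all higher, from 1.11 to 5.24 with a median of 2.29. None had 90% unique 31-mers, and the median was 43.0%. The KLF/SP word was in 71.9% of them against 15.8% of other distal elements, and CCAAT, bound by NF-Y, in 75.4% against 40.1%. The CRE word, bound by CREB and ATF factors, was in 8 (14.0%) against 1.62%, and these 8 had a median of 3.41 against 2.18 in the other 49. The words were common in the family's genomic copies too, listed or not, where 100 bp beside the core were searched as well. There KLF/SP was in 5224 copies and lacking in 2586, CCAAT in 7599 and lacking in 211, and CRE in 2523 and lacking in 5287.

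Family 3 had 89 members, 87 of them higher, at a median of 1.56, the lowest but for family 8. The E-box CAGCTG, bound by E proteins such as E2A and HEB, was in 44.9% against 26.5% of other distal elements, and 75.3% held the poly(A) signal AATAAA, which marks the end of transcripts, against 25.5%. Family 5 had 59 members, 57 higher, with a median of 1.83. Its OCT word (ATGCAAAT), of the POU factors, was in 16.9% against 2.94%, and the 10 members with it were all higher with a median of 2.18. Family 8 was split, with 30 of 50 higher (60%, 45.2 to 73.6), values from -3.85 to 3.13 and a median of 0.961. It had the highest median unique share of the 8, at 89.7%. The AP-1 word was in 38% of it, much as in other distal elements (38.3%). The RUNX word AACCACA, of a factor of T-cell development, was in 36% against 16.9%. Of its 24 members with at least 90% unique 31-mers 12 were higher.

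**Figure D3:**
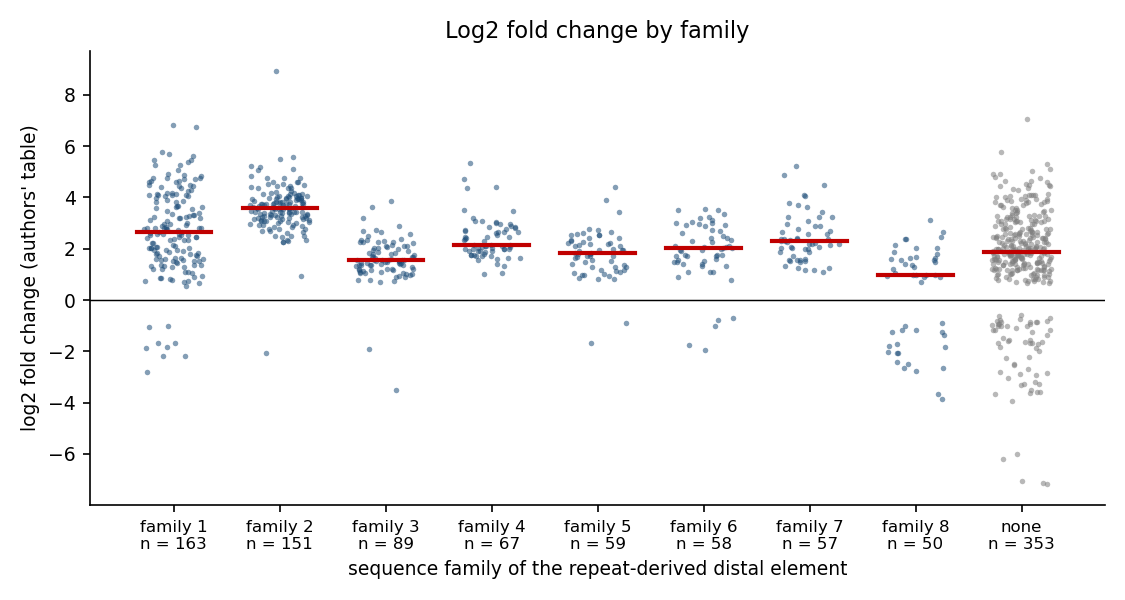
Log2 fold change in the authors' deposited table (y axis) of each repeat-derived distal element, as 1 point, by sequence family (x axis, with the number of members). Red lines are medians and the horizontal spread of points has no meaning. Family 2 lies highest with a median of 3.60, and family 8 and the elements of no family hold most of the values below 0.

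**Figure D4:**
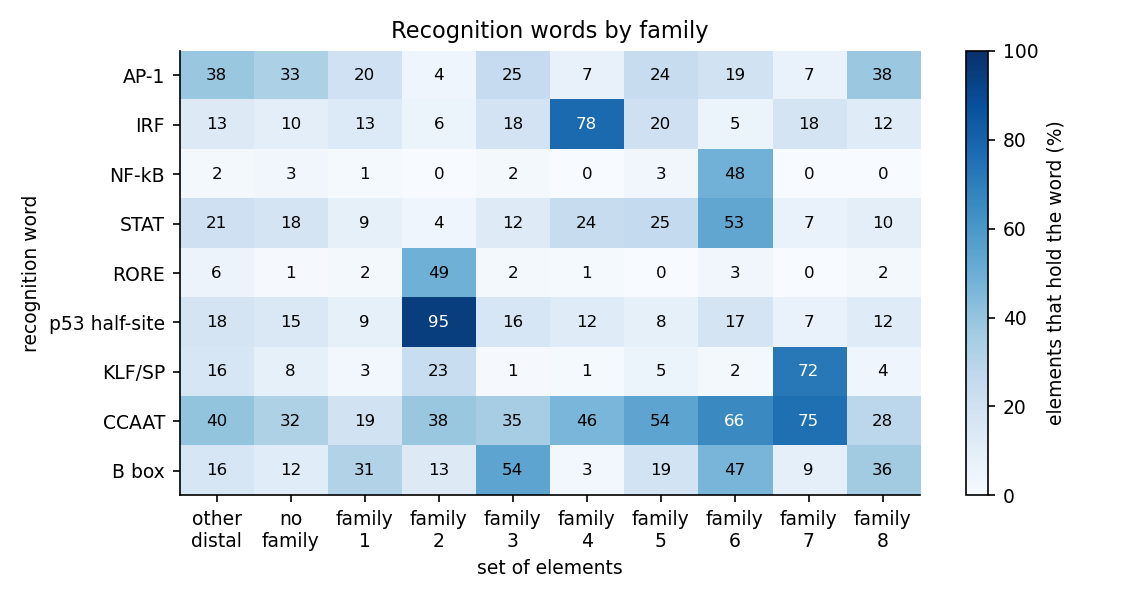
Share of elements that hold a recognition word (colour and number, percent) for 9 words (rows) in other distal elements, members of no family and the 8 families (columns). The p53 half-site in family 2, IRF in family 4, NF-kB in family 6 and KLF/SP in family 7 stand above their shares in other distal elements.

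LTRIS4, a mouse LTR that RefSeq annotates on chr17, matched 24 members, of which 21 were in no family, 2 in family 1 and 1 in family 2, with a median identity of 81.1% over a median of 93.5 bases. All 24 were higher (85.8 to 100%), from 0.785 to 8.91, with a median of 2.29. The highest of these is the family 2 element near Zfp53, matched over 31 bases. The median unique share of the 24 was 35.6%. All 278 members with over 10 to 50% unique 31-mers were higher too, with a median of 2.95. The 21 of no family ran from 0.821 to 5.30, with a median of 2.38. AP-1, the dimer of FOS, JUN and BATF factors of activated T cells, had its word in 20 of the 24 (83.3%), in masked bases in all 20.

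Over all members the AP-1 word was less common than in other distal elements, in 230 (22.0%) against 38.3%. Members with it were higher in 91.7% and those without it in 89.8%, a difference of 1.90 points (-2.78 to 5.58), and medians were 1.60 and 2.37. In other distal elements the shares were 87.7% and 61.3%. The counts differed with uniqueness. Among members with at least 90% unique 31-mers 68 of 76 with the word were higher (89.5%) and 109 of 176 without it (61.9%), a difference of 27.5 points (16.3 to 36.5), close to the 87.1% and 58.9% of other distal elements as unique. Among members under 90% the order was turned, with 92.9% of 154 and 97.5% of 641. Other distal elements under 90% kept the order, with 326 of 336 higher with the word (97.02%) and 634 of 743 without it (85.3%). By the place of the word, 110 of 123 members with it only in masked bases were higher (89.4%, 82.6 to 94.3) and 64 of 69 with it only in unmasked bases (92.8%, 83.9 to 97.6). Masked bases of members held 6.50 matches per 10 kb and unmasked bases 8.55. The CTCF word, of the factor that bounds chromatin domains, was in 5 members (0.478%) and 3.37% of other distal elements.

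Whether a family copy is listed was then set against its letters. The core of each family, a stretch of 1 member that others aligned to, was searched on the chromosomes. A copy was counted when at least 80% of the core aligned. At its deepest base the core was covered by 147 of 151 members in family 2, 52 of 67 in family 4 and 50 of 57 in family 7. In family 6 it was covered by 30 of 58 and in family 8 by 30 of 50. Copies of these 2 cores thus stand for part of the family. A copy was listed as higher when its middle lay in a higher element. Cores were drawn from members, so listed copies resemble them by construction, and a copy that is not listed may have been tested without passing or not covered. The pairs of word and family below were chosen after their values were seen. Many copies that were not listed held these words too. Shares of a word above those in other distal elements therefore describe the whole repeat and not its listed copies alone. Family 2 had 1057 copies, of which 134 were listed as higher (12.7%) and none as lower, and family 6 had 367, with 51 higher (13.9%) and none lower. Copies of the other families were more numerous: 69841 B1 copies with 158 higher (0.226%) and 18 lower, 33754 copies of family 4 with 45 higher (0.133%), and 98635 of family 8 with 43 higher and 35 lower.

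In family 2, 134 of 918 copies with a p53 half-site in the core or 100 bp beside it were listed as higher (14.6%, 12.4 to 17.0), and 0 of 139 without it (0 to 2.62), where a limit of 3 counts would be 2.16%. Members were searched within the element only, and there 7 of the 8 without the half-site were higher. Identity to the core hardly differed between these, at medians of 94.8% and 94.7%, and neither did the unique share, at 41.3% and 44.9%. Among copies with at least 50% unique 31-mers the counts were 39 of 282 (13.8%) and 0 of 58 (0 to 6.16), where 3 counts would be 5.17%. The commonest half-site was GGACATGCCC, or GGGCATGTCC on the other strand, the letters in capitals in the Zfp53 window, in 690 copies with 114 higher (16.5%). The RORE word divided the copies less, with 13.6% of 574 with it and 11.6% of 483 without it, whose intervals overlap. The half-site was not the only word that went with listing. Of copies with CCAAT 124 of 694 were listed as higher (17.9%, 15.1 to 20.9), and of those without it 10 of 363 (2.75%, 1.33 to 5.01). Median unique shares were 37.7% and 51.2%. At 50% unique 31-mers or more the counts for CCAAT were 32 of 148 and 7 of 192. Copies with the GATA word AGATAA were listed less often, 13 of 416 (3.13%, 1.67 to 5.28), than those without it, 121 of 641 (18.9%, 15.9 to 22.1), with median unique shares of 50.3% and 37.1%.

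In family 6, 45 of 185 copies with the NF-kB word were listed as higher (24.3%, 18.3 to 31.2) and 6 of 182 without it (3.30%, 1.22 to 7.04). The unique share was alike, at medians of 79.2% and 80.2%, and identity to the core was 86.8% and 84.8%. The letters GGGACTTTCC, as in the printed window, were in 168 copies, with 44 higher (26.2%). With both the NF-kB and the STAT word 35 of 116 copies were higher (30.2%, 22.0 to 39.4), with NF-kB alone 10 of 69 (14.5%), with STAT alone 6 of 104 (5.77%) and with neither 0 of 78 (0 to 4.62), where 3 counts would be 3.85%. Copies with neither were also furthest from the core, at a median identity of 81.0% against 88.1% with both.

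In family 4 the IRF word was in 24993 copies, with 41 higher (0.164%, 0.118 to 0.222), and lacking in 8761, with 4 higher (0.0457%, 0.0124 to 0.117). Copies with it were closer to the core, at 84.0% against 79.7%, and less unique, at 7.67% against 52.8%. Other words divided these copies as well. The share was 0.363% of 6067 copies with the TATA word and 0.0831% of 27687 without it. For the TCF/LEF word it was 0.0773% of 24594 and 0.284% of 9160. Median unique shares were 48.7% and 9.79% for TATA, and 7.44% and 47.6% for TCF/LEF. Among family 4 copies with at least 50% unique 31-mers, intervals overlapped for TATA (0.473% and 0.266%) and TCF/LEF (0.365% and 0.319%). They lay apart for IRF, at 0.658% (0.422 to 0.978) and 0.0873% (0.0238 to 0.223). In family 7 the share was 0.995% of 5224 copies with the KLF/SP word and 0.464% of 2586 without it, with overlapping intervals. The order was the other way for the CRE word, with 0.515% of 2523 against 0.965% of 5287, and for CCAAT, with 0.790% of 7599 against 1.90% of 211, also with overlapping intervals. Intervals lay apart for the E-box CAGCTG, with 0.249% of 4017 copies with it (0.119 to 0.457) and 1.42% of 3793 without it (1.07 to 1.85). Among copies with at least 50% unique 31-mers few were listed as higher, 0 of 87 with the KLF/SP word (0 to 4.15%) and 2 of 89 without it.

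**Figure D5:**
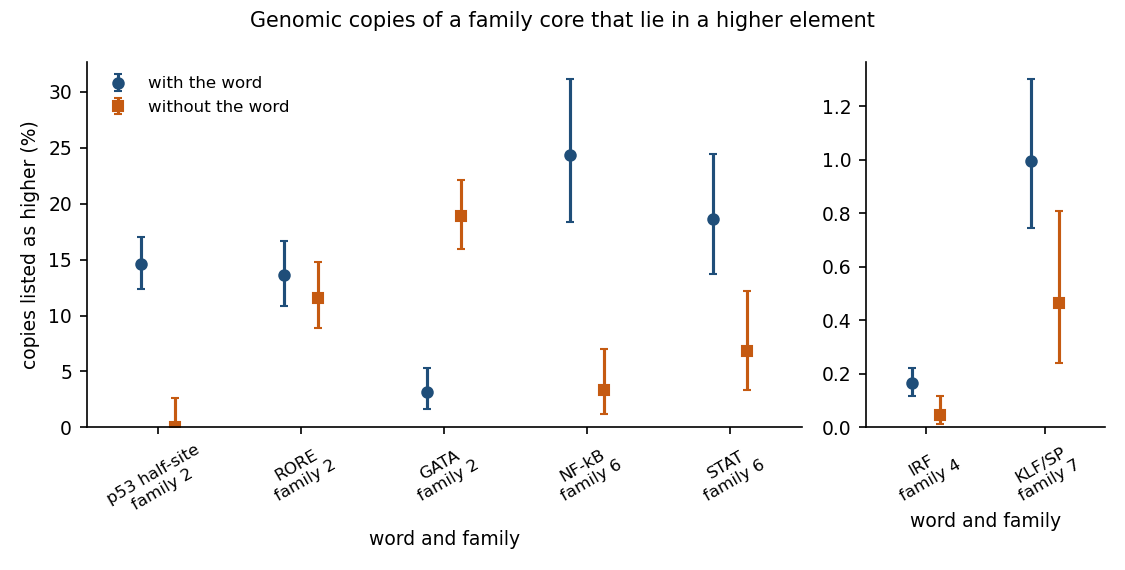
Share of the genomic copies of a family core whose middle lies in a higher element (y axis, percent; the right panel has its own scale), with exact 95% intervals, for copies with (circles) and without (squares) a word in the core or 100 bp beside it. In family 2 the share is 14.6% with and 0% without the p53 half-site, and in family 6 it is 24.3% with and 3.30% without the NF-kB word.

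The highest member of all, at 8.91 in the authors' deposited table, was a family 2 element of 900 bp at chr17:21477701-21478600, intergenic and 10.8 kb away from the start of Zfp53, a zinc finger gene. Only 31.5% of its 31-mers are unique. Next came an element of no family 24.2 kb from Slc19a2, a thiamine transporter, at 7.06, with 8.51% unique 31-mers. Family 1 elements followed at 6.84 near Tsc22d2 and 6.74 in an intron of another gene, with Htr2a as the nearest coding gene. The other 4 of the 8 highest lay between 5.63 and 5.78, near Eapp, Slc25a21, Cyp19a1 and Cox7c. The 8 had 8.51 to 62.9% unique 31-mers. Of the 5 higher members of smallest p, that near Lag3, an inhibitory receptor of activated T cells, was fully unique. It spans 300 bp at chr6:124907826-124908125 in an intron of a coding gene, had a log2 fold change of 4.00, and its printed sequence holds an AP-1 and an IRF word close together.

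The 8 lowest members ran from -7.18 to -3.68. They lay near Pxt1 (-7.18), Ralgapa2 (-7.15), Gnpnat1 (-7.07), Ddx43 (-6.20), Cyp4f15 (-6.00), Map1b (-3.94), Usp9x (-3.85) and Zfp618 (-3.68). None was in family 1 to 7, 1 was in family 8, and the unique share was 83.3% near Map1b and 94.4 to 100% in the other 7. The elements near Ralgapa2, Cyp4f15 and Zfp618 spanned 50 bp.

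The gene lists held 13 members in all. Of the members, 868 had a coding TSS within 100 kb, of 825 genes, and made up 6.91% of all distal elements so linked. For 32 Th17 genes there were 2 members among 106 distal elements (1.89%): 1.08 near Tgfbr2, the receptor of TGF-beta, in family 6, and -0.574 near Il6ra, the receptor of interleukin-6. For 32 activation genes there were 2 of 118 (1.69%): 2.16 near Nr4a3, a nuclear receptor induced by T-cell receptor signals, in family 4 with an IRF word, and -0.945 near Cd69, an early activation marker. T identity genes had 4 of 86 (4.65%), at 1.77 near the costimulatory receptor Cd28, 1.40 near Cd2, 1.37 near Themis and -1.10 near Thy1. Th2 genes had 2 of 26 (7.69%), at 3.54 near Crlf2, a family 2 element with a p53 half-site, and 2.23 near Il1rl1, the receptor of interleukin-33. The rest were 1.18 near Il12rb2 of the Th1 list (1 of 41), -1.17 near Entpd1 of the Treg list (1 of 28) and 1.24 near the neuronal Slc17a6 (1 of 14). The interferon, B cell and myeloid lists had none, of 23, 8 and 8 distal elements. The nearest gene is a position and not a measured target.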

How the data were processed

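Reporter activity was measured by STARR-seq in 4 replicates of 1 group. Per the file headers, the authors quantified elements on mm10 from the alignments of all replicates and deposited a log2 fold change, a p-value and a q-value per element, with its length in bp. Aligner, caller, masking program and the handling of reads with several matches were not given in the sources used here. TSSs came from GENCODE vM21, sequence and soft-masking from GRCm38.p6, and names of mobile elements from RefSeq. Masked stretches of at least 40 bp were compared with blastn 2.17.0 (e-value of at most 1e-10, at least 50 bp) and grouped with leidenalg 0.10.2 (resolution 1). Reference matches had an e-value of at most 1e-05. Difference intervals are Newcombe's, and those of weighted differences normal approximations. The weighted difference and the word search were tested on simulated data. Members, lists, words and families were chosen with earlier results of these data known, and the p53 half-site was added after seeing them. Named members were, by a fixed rule, the 8 highest, the 8 lowest, the 5 of smallest p in each direction, that of smallest p per family and per listed gene. Alternatives varied masking, distance, q-value, size, length, uniqueness, locus, tandem repeats (at least 30% of 12-mers present 3 times) and chromosome X.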

Additional observations from a re-analysis of the deposited data

How the results depend on the processing

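Values were recomputed under 14 other settings fixed with the design, 12 for the element values and 2 for the families, and 2 added after seeing the data. The main values are 90.3% higher, a median of 2.15, differences of 18.9, 10.6 (GC) and 10.9 (GC and length) points, and 1.90 points for AP-1. A masked share of at least 30% gave 86.3%, 1.74, 15.9, 6.35 and 6.61 and, for AP-1, 5.51 (2.44 to 8.31, against -2.78 to 5.58 at the main setting), at least 70% gave 93.5%, 2.51, 21.6, 14.8 and 15.4, and at least 90% gave 94.9%, 2.59, 22.5, 18.4, 19.2 and, for AP-1, 5.71. A q-value under 0.001 gave 97.7%, 2.57, 13.9, 6.83 and 6.26. Leaving out absolute log2 fold changes under 1 moved the median to 2.30. A length of at least 200 bp gave 93.4% and, by GC and length, 7.97. Without elements under 90% unique 31-mers the values were 70.2%, 1.26, 0.342, -7.22, -7.59 and, for AP-1, 27.5, and the GC and the GC and length differences reversed. Split at 100 bp and without weighting, members at this setting were more often higher than other distal elements on both sides. Weighting over 5 bins of unique share gave 3.93. The causes were not tested. The 5 kb distance, TSSs of all genes, 1 element per locus, leaving out tandem repeats and leaving out chromosome X left each of the 6 values within its main interval. The AP-1 difference was -0.134 at a length of at least 200 bp. A stricter e-value of 1e-20 put 568 members in families, 559 of them among the 694, and a resolution of 2 put 683, all among the 694. At 1e-20 family 8 was no longer found, and at a resolution of 2 the largest remaining groups held 77 of the 151 members of family 2 and 36 of the 58 of family 6. In copies with at least 50% unique 31-mers the share of family 4 copies with the IRF word was 0.658%, and the other 5 shares of copies with or without the p53 half-site, IRF or NF-kB word stayed within their main intervals. No paired analysis was possible because the 4 replicates form 1 group and the table holds no value per replicate. Depth is unknown, so no limit from it can be given.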

Other observations

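Members far from genes were more often higher. Within 1 to 5 kb of a coding TSS 86 of 102 were (84.3%), at 100 to 500 kb 141 of 148 (95.3%) and beyond 500 kb all 31 (88.8 to 100%), with medians of 1.47, 2.49 and 3.23. Other distal elements went from 56.3% to 93.2% over the same bins. The median unique share of members fell from 83.5% to 57.9%.

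Chromosome X had the largest share of members among its distal elements, 31 of 302 (10.3%), with 30 higher, and chromosome 2 the smallest, 74 of 1238 (5.98%). The share of higher members ranged from 79.1% on chromosome 17 to 98.1% on chromosome 5.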
